A study of Homo sapiens with 12 samples.

Results

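The Nodal pathway, with the mesendoderm programme that it controls, was followed in human embryoid bodies through 10 genes. They are the ligands NODAL and GDF3, the co-receptor TDGF1, the secreted inhibitors LEFTY1, LEFTY2 and CER1, the SMAD partner FOXH1, and the target transcription factors GSC, EOMES and TBXT. The 10 genes were listed by name among the 65969 identifiers of the count table, and each of them passed the filter on low counts that left 24898 genes for testing. They were chosen by the measured levels of CER1, GDF3 and TDGF1, which differed between the hairpins used to deplete METTL14. Differences between hairpins are therefore given here as levels, without a test, for the listed genes.

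Nodal is a secreted signal of the transforming growth factor beta superfamily. It binds activin receptors together with a co-receptor such as TDGF1 (also called CRIPTO), the receptors phosphorylate SMAD2 and SMAD3, and these enter the nucleus with SMAD4 and act on target genes through partners such as FOXH1. Many targets are parts of the pathway itself, among them NODAL, GDF3 and the LEFTY and CER1 inhibitors. In the embryo and in differentiating stem cells the pathway helps to maintain pluripotency and, at higher activity, directs cells into the primitive streak, mesendoderm and endoderm, where GSC, EOMES and TBXT are expressed.

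The samples were aggregates of H1 and MEL1, which are established human embryonic stem cell lines. Each line had been transduced with a lentiviral vector carrying a doxycycline-inducible short hairpin RNA and selected with puromycin. The hairpin was KD1, KD2 or KD3 against METTL14, a subunit of the enzyme complex that writes N6-methyladenosine on RNA, or the control hairpin SCR. Aggregates seeded at 500 cells per microwell were kept for 10 days in embryoid body medium with doxycycline at 2 µg/ml, so the SCR libraries carry a hairpin and received the drug as well. In H1, 2 libraries were made for each of SCR, KD1, KD2 and KD3, and MEL1 had 1 SCR, 2 KD1 and 1 KD2 library. The labels do not say whether libraries of a group came from separate cultures or whether a line was 1 clone, so p-values measure only the spread between these libraries.

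Promoter sequences of the 3 genes that led to the choice show which letters of the pathway's own binding motifs lie near their starts. They are given 5′ to 3′ along the gene's strand from 250 bases before to 50 bases after the start site, from RefSeq on GRCh38.p14, with motif matches in capitals. CER1 is read from the minus strand at chr9:14722684-14722983, and GDF3 from the minus strand at chr12:7695726-7696025. TDGF1, listed in RefSeq as CRIPTO, has 2 start sites on the plus strand, at chr3:46574285-46574584 and chr3:46577538-46577837.
CER1: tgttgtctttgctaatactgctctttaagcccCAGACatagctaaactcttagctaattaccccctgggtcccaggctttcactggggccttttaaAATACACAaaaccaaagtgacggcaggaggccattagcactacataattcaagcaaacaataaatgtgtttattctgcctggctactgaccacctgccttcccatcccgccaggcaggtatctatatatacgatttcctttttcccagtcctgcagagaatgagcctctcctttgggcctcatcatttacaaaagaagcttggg
GDF3: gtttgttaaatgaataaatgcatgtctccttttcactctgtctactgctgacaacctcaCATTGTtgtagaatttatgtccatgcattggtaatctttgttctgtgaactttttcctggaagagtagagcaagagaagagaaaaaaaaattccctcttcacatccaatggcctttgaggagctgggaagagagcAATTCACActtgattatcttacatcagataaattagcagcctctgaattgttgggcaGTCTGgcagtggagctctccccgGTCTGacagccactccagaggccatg
TDGF1, first start: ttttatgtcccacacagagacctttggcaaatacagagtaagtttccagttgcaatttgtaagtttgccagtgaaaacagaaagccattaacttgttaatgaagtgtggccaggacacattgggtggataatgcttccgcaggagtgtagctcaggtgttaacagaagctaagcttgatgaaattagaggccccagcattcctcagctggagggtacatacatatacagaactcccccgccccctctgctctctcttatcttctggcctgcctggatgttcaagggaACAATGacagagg
TDGF1, second start: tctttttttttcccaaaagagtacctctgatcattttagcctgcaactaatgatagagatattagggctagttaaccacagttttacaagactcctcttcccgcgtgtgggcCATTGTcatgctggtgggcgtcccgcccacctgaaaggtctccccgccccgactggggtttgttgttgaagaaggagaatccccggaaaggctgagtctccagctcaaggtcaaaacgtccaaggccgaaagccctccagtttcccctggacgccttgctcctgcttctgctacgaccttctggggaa

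In these windows 6 motifs were searched on both strands, and the searched letters of none hold those of another. AATNCACA, bound by FOXH1, occurred in 3.31% of the 35116 RefSeq promoters of that length. CAGAC, bound by SMAD3 and SMAD4, occurred in 45.3%, and the SOX letters CATTGT in 10.8%. The octamer ATGCAAAT occurred in 1.77%, the T-box letters AGGTGTGA in 0.98% and TATAAA in 11.5%. CER1 held FOXH1 letters that began 154 bases before its start and SMAD letters that began 218 bases before it. GDF3 held FOXH1 letters 56 bases before its start, SOX letters 191 bases before it and SMAD letters that began at bases 2 and 25 of the transcript. TDGF1 held no FOXH1 or SMAD letters in either window, and SOX letters at base 38 after the first start and 138 bases before the second. Of the 10 genes, 7 had an entry, with 9 start sites in all. Neither the octamer nor the T-box letters were found in any of these 9 windows, and FOXH1 letters were found in those of CER1 and GDF3. A match describes letters and shows no binding.

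Libraries held 36609628 to 43508287 estimated counts, except for the MEL1 SCR library with 15963241. Levels are given as CPM, estimated counts scaled to a common library size by the trimmed mean of M-values, and a count of 0 allows a level of up to 0.0642 to 0.204 CPM (3 counts), the highest of these limits being that of MEL1 SCR. Such limits cover counting error only. METTL14 was at 29.8 and 43.8 CPM with SCR in H1 and between 8.89 and 17.6 CPM in the 6 H1 hairpin libraries. It was at 49.9 CPM in MEL1 SCR and between 5.94 and 8.95 CPM in the 3 MEL1 hairpin libraries. The difference over both lines was -1.96 ± 0.23 (log2, SE), with an adjusted p of 0.00266 by edgeR's quasi-likelihood test with Benjamini-Hochberg adjustment.

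Per kilobase of transcript, TDGF1 had the highest mean of the 10 genes in each line. Its mean was 101 ± 43.7 CPM per kilobase (SD, n = 4) in MEL1 and 6.67 ± 3.92 (SD, n = 8) in H1. In MEL1 it was followed by FOXH1 at 25.1 CPM per kilobase, GDF3 at 5.27, NODAL at 0.769 and CER1 at 0.623, and the other 5 genes were between 0.0848 and 0.258. The order in H1 was different, with FOXH1 at 4.93 CPM per kilobase, EOMES at 3.88 and CER1 at 1.88 after TDGF1, and the other 6 genes between 0.0581 and 0.599. That order did not hold in every H1 group: in KD1, TDGF1 was at 1.94 ± 0.0807 CPM per kilobase (SD, n = 2), below FOXH1 at 6.98 ± 0.512 and EOMES at 3.71 ± 0.365, and in the second KD2 library it was at 3.58, below FOXH1 at 3.85. In these bulk samples, fewer cells of a type and less RNA per cell cannot be told apart.

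**Figure D1:**
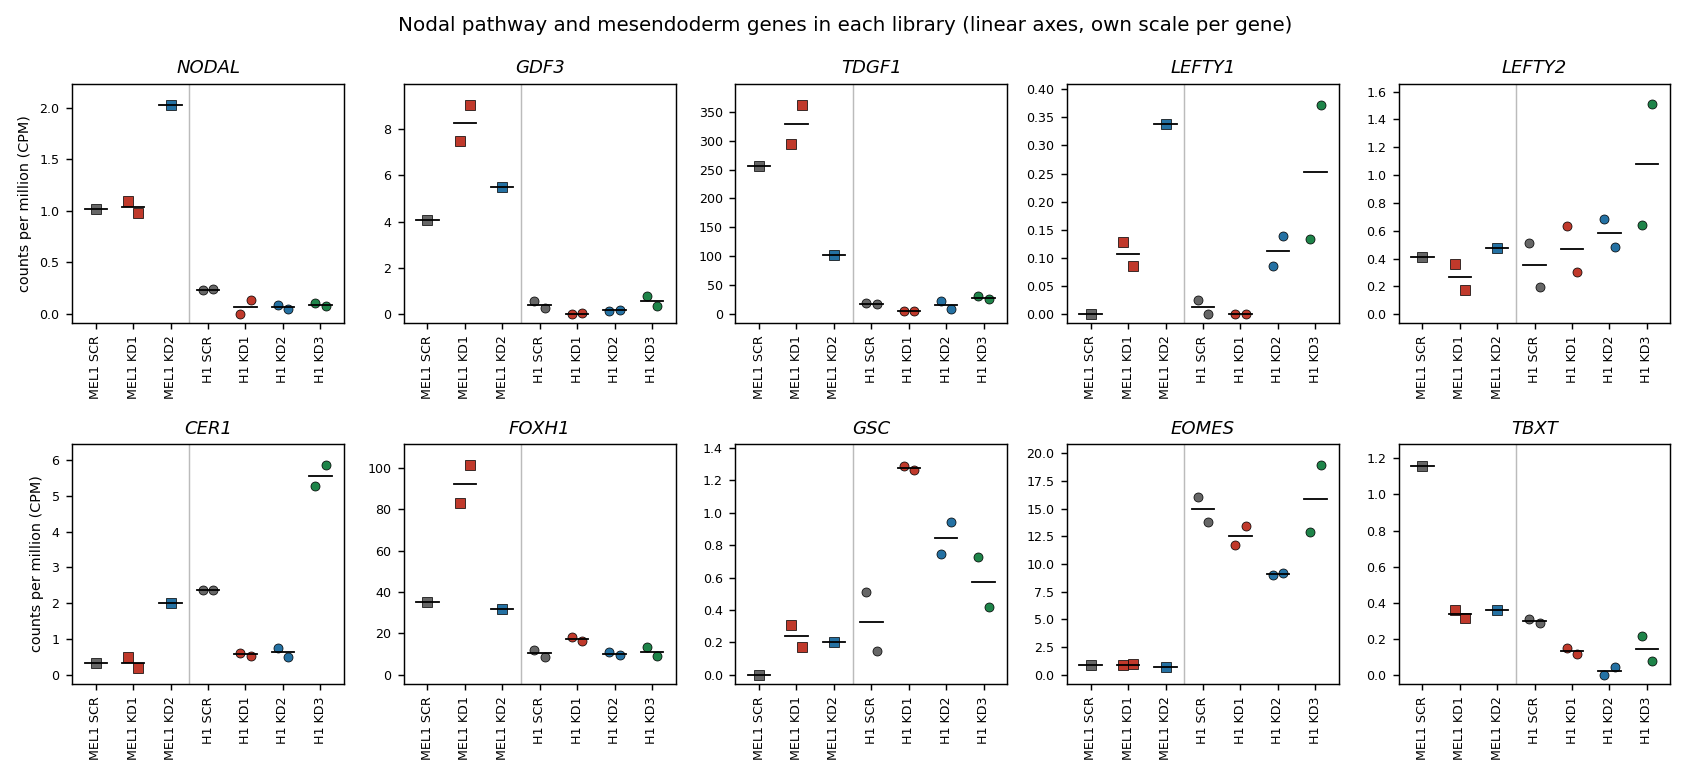
Level of each of the 10 genes in the 12 libraries, in CPM on a linear axis with its own scale for each gene; squares are MEL1 libraries, circles are H1 libraries, colours mark the hairpin and the line is the group mean. CER1 stands at 5.26 and 5.85 CPM in H1 KD3 and below 0.75 CPM in H1 KD1 and KD2, and EOMES stands above 8.9 CPM in every H1 library and below 1 CPM in every MEL1 library.

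NODAL, the ligand that gives the pathway its name (chromosome 10, 70432315 to 70447951), was scarce in H1. With SCR its level there was 0.231 and 0.242 CPM, and it was 0 and 0.141 in KD1, 0.0856 and 0.0461 in KD2, and 0.107 and 0.0744 in KD3, from at most 10 counts. All 6 H1 hairpin libraries were below both SCR libraries. In MEL1 it was 1.02 CPM with SCR, 1.10 and 0.976 with KD1, and 2.02 with KD2. The 4 MEL1 libraries thus lay above every H1 library, and KD2 stood apart from SCR and KD1, which overlapped. Among the transcript words of 31 bases used to match reads, 40.4% of those of NODAL also occur, on the opposite strand, in 1 other annotated gene, and whether reads were assigned by strand is not given in the sources used here.

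GDF3 (chromosome 12, 7689782 to 7695776) encodes a second ligand of the same receptors, which also works through TDGF1. In H1 its level was 0.564 and 0.266 CPM with SCR, 0 and 0.0469 with KD1, 0.150 and 0.184 with KD2, and 0.806 and 0.347 with KD3. KD1 was lowest, KD2 lay between it and SCR, and KD3 overlapped SCR. No fold is given for KD1, whose libraries held 0 and 2 counts. In MEL1 the level was 4.09 CPM with SCR, 7.49 and 9.04 with KD1, and 5.49 with KD2. Both KD1 libraries were therefore the highest of MEL1, while KD1 was the lowest group of H1.

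TDGF1 (chromosome 3, 46574534 to 46582463), the membrane-bound co-receptor and a marker of pluripotent cells, was at 18.4 and 17.5 CPM in H1 SCR. It was at 4.73 and 5.02 CPM in H1 KD1, 21.9 and 8.99 in KD2, and 31.8 and 25.6 in KD3. The H1 KD1 libraries were lowest, at 27.1% of the SCR mean, the KD3 libraries were highest, at 1.60 times that mean, and the KD2 libraries fell on either side of SCR. In MEL1 the level was 256 CPM with SCR, 294 and 362 with KD1, and 102 with KD2. The order of these hairpins was opposite in the lines: the mean of KD1 was 3.18-fold lower than that of KD2 in H1 and 3.20 times that of KD2 in MEL1. Of its 31-base words, 47.9% also occur in the copy TDGF1P3, which was at 0 to 0.150 CPM in H1 and 0.360 to 2.04 CPM in MEL1. Adding the counts of the copy left the differences tested for TDGF1 within 0.01 on the log2 scale.

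LEFTY1 and LEFTY2, neighbouring genes on chromosome 1, encode inhibitors that bind Nodal and its co-receptor. LEFTY1 was at 0.0256 and 0 CPM in H1 SCR, 0 in both KD1 libraries, 0.0856 and 0.138 in KD2, and 0.134 and 0.372 in KD3. It was at 0 CPM in MEL1 SCR, 0.128 and 0.0861 in MEL1 KD1, and 0.337 in MEL1 KD2. No library held more than 15 counts, and no fold is given for it. LEFTY2 was at 0.512 and 0.193 CPM in H1 SCR, 0.632 and 0.305 in KD1, 0.685 and 0.484 in KD2, and 0.645 and 1.51 in KD3. Its MEL1 levels were 0.409 CPM with SCR, 0.358 and 0.172 with KD1, and 0.472 with KD2. In H1 SCR overlapped KD1 and KD2, and both KD3 libraries lay above both SCR libraries. These genes are uncertain, since 49.1% of the words of LEFTY1 also occur in other genes and 25.7% of those of LEFTY2 in LEFTY1.

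CER1 (chromosome 9, 14719724 to 14722717) encodes Cerberus, a secreted antagonist of Nodal and bone morphogenetic protein signals that marks anterior endoderm. In H1 it was at 2.38 and 2.37 CPM with SCR, 0.607 and 0.539 with KD1, 0.749 and 0.507 with KD2, and 5.26 and 5.85 with KD3. KD1 and KD2 overlapped each other at 24.1% and 26.4% of the SCR mean, and KD3 was 2.34 times that mean. The 3 ranges did not overlap: KD1 with KD2, SCR, and KD3. In MEL1 the level was 0.341 CPM with SCR, 0.486 and 0.201 with KD1, and 2.00 with KD2. SCR and KD1 overlapped there and KD2 was 5.88 times the single SCR library, which held 5 counts. KD2 thus stood below SCR in H1 and above it in MEL1.

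FOXH1, the DNA-binding partner of SMAD2 and SMAD3 (chromosome 8, minus strand), was at 11.9 and 8.85 CPM in H1 SCR, 18.4 and 16.6 in KD1, 10.9 and 9.64 in KD2, and 13.7 and 8.90 in KD3. In H1 both KD1 libraries lay above both SCR libraries, and KD2 and KD3 overlapped SCR. In MEL1 it was at 35.2 CPM with SCR, 83.2 and 101 with KD1, and 31.9 with KD2. KD1 held the highest level in both lines, at 1.69 times the SCR mean in H1 and 2.62 times in MEL1. After a trend on transcript GC content and length was removed from each library, the log2 fold of KD1 was 0.48 in place of 0.76 in H1 and 0.66 in place of 1.39 in MEL1, and that of MEL1 KD2 was -0.66 in place of -0.14. FOXH1 has a GC content of 63.3%. Of its 31-base words, 30.4% occur on the opposite strand in the overlapping gene KIFC2. The mean level of KIFC2 was 8.85 CPM with SCR, 15.7 with KD1, 11.6 with KD2 and 17.6 with KD3 in H1, and 11.8, 17.6 and 24.4 CPM with SCR, KD1 and KD2 in MEL1. In KD1 both genes were above SCR in both lines. KIFC2 was highest in H1 KD3 and MEL1 KD2, where FOXH1 overlapped or lay below SCR. The part of KIFC2 reads in the levels of FOXH1 was not tested.

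GSC (chromosome 14, 94768216 to 94770230) encodes a homeodomain factor of the anterior primitive streak and organizer. It was at 0.512 and 0.145 CPM in H1 SCR, 1.29 and 1.27 in KD1, 0.749 and 0.946 in KD2, and 0.725 and 0.421 in KD3. KD1 was above KD2 and KD2 above KD3, and KD3 overlapped SCR. In MEL1 it was at 0 CPM with SCR, 0.307 and 0.172 with KD1, and 0.202 with KD2, from at most 12 counts, and a count of 0 in that SCR library allows up to 0.204 CPM.

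EOMES (chromosome 3, 27715949 to 27722711), a T-box factor of the primitive streak that later serves also in neural progenitors, separated the lines. In H1 it was at 16.1 and 13.8 CPM with SCR, 11.7 and 13.4 with KD1, 8.99 and 9.23 with KD2, and 12.9 and 18.9 with KD3. KD2 was the lowest H1 group, at 61.0% of the SCR mean, KD1 lay between KD2 and SCR, and KD3 overlapped SCR. In MEL1 it was at 0.886 CPM with SCR, 0.895 and 0.976 with KD1, and 0.742 with KD2, a spread of 13 to 35 counts.

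TBXT (chromosome 6, 166157656 to 166168700) encodes Brachyury, the T-box factor that marks the primitive streak and nascent mesoderm. It was at 0.307 and 0.290 CPM in H1 SCR, 0.152 and 0.117 in KD1, 0 and 0.0461 in KD2, and 0.215 and 0.0744 in KD3. In MEL1 it was at 1.16 CPM with SCR, 0.358 and 0.316 with KD1, and 0.360 with KD2. Every one of the 9 hairpin libraries was below the SCR libraries of its line, from at most 17 counts in any library.

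**Figure D2:**
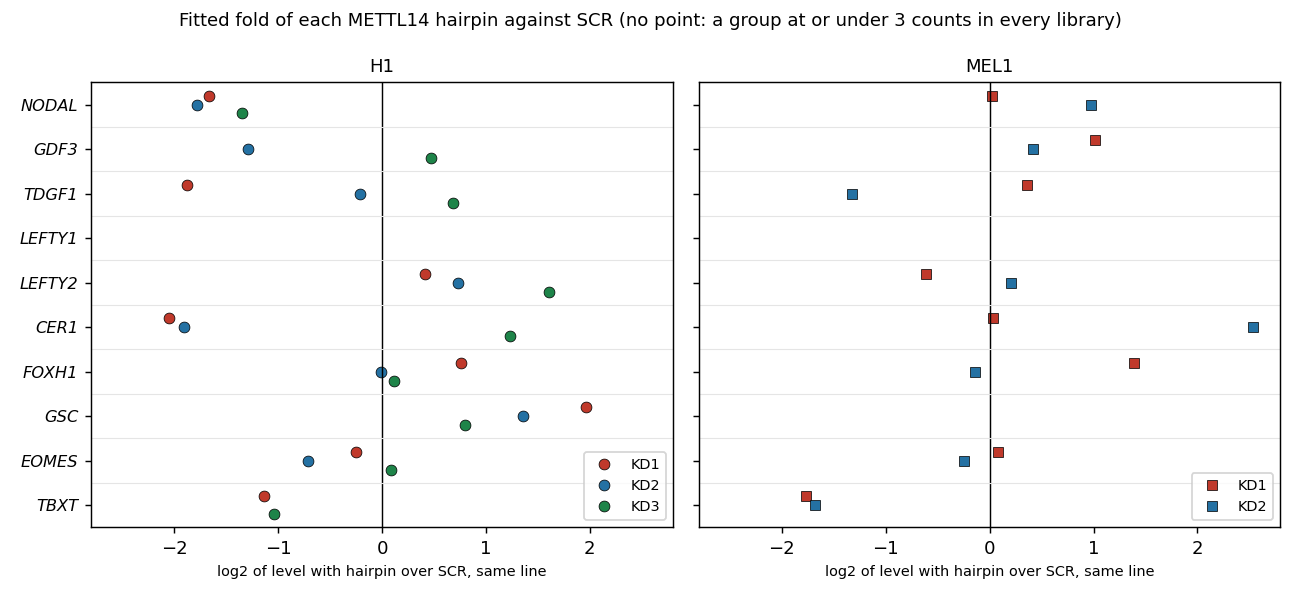
Fitted log2 fold of each METTL14 hairpin against the SCR libraries of the same line, H1 on the left and MEL1 on the right, with 1 point per hairpin and no error shown because these differences chose the genes. CER1 lies at -2.05, -1.91 and 1.23 for KD1, KD2 and KD3 in H1 and at 0.03 and 2.54 for KD1 and KD2 in MEL1; genes at or under 3 counts in every library of a group have no point.

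The comparison over both lines asked what the hairpins against METTL14 had in common, with cell line as a covariate. None of the 10 genes passed an adjusted p of 0.05 by edgeR's quasi-likelihood test with Benjamini-Hochberg adjustment, where 0.213% of all tested genes did. At an unadjusted p under 0.05 there were 3 (GSC, TBXT and LEFTY1), and DESeq2 called 0. TBXT had the lowest value, -1.63 ± 0.59 (log2, SE; edgeR adjusted p = 0.206), with all 9 hairpin libraries below the SCR libraries of their line. GSC had the highest, 1.67 ± 0.56 (edgeR adjusted p = 0.173). For the 3 genes whose differences between hairpins led to the choice, the averages were close to 0 with wide errors: 0.22 ± 0.91 for CER1, -0.15 ± 0.71 for GDF3 and -0.0966 ± 0.56 for TDGF1 (log2, SE). Their signs changed when single libraries were left out, over -0.20 to 0.41 for CER1, -0.71 to 0.43 for GDF3 and -0.29 to 0.0283 for TDGF1. Over the 9 genes with a fold the median was -0.10, beside 0.05 over all tested genes.

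Within H1, the average of KD1, KD2 and KD3 was set against SCR. This average is made of the same H1 libraries whose hairpin differences led to the choice of CER1, GDF3 and TDGF1. For these 3 genes the p-values and calls of this comparison are therefore not free of that choice, and they are given as description. None of the 10 genes was called by edgeR, where 7.16% of all tested genes were (2.23% higher and 4.93% lower). An unadjusted p under 0.05 was found for 5 of them. CER1 had an average difference of -0.91 ± 0.28 (log2, SE; edgeR adjusted p = 0.0749), while its KD3 libraries were above SCR. GDF3 was at -1.58 ± 0.50 (edgeR adjusted p = 0.0845), and DESeq2 called it at -1.63 with an adjusted p of 0.0445. Its log2 fold against SCR was -1.29 for KD2 and 0.47 for KD3, and its KD1 libraries held 0 and 2 counts. The mean GDF3 level of the H1 hairpin libraries was 61.7% of the SCR mean. NODAL was at -1.60 ± 0.66 (edgeR adjusted p = 0.174), TBXT at -1.91 ± 0.69 (edgeR adjusted p = 0.121) and GSC at 1.37 ± 0.53 (edgeR adjusted p = 0.143). Some calls appeared with 1 library left out, with edgeR: NODAL at -3.11 (adjusted p = 0.0396) without the second H1 KD1 library, TDGF1 at -0.73 (adjusted p = 0.0119) without the first H1 KD2 library, and CER1 at -0.91 without either MEL1 KD1 library (adjusted p = 0.0409 and 0.0405). The median over 9 genes was -0.47, beside 0.01 over all tested genes.

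**Figure D3:**
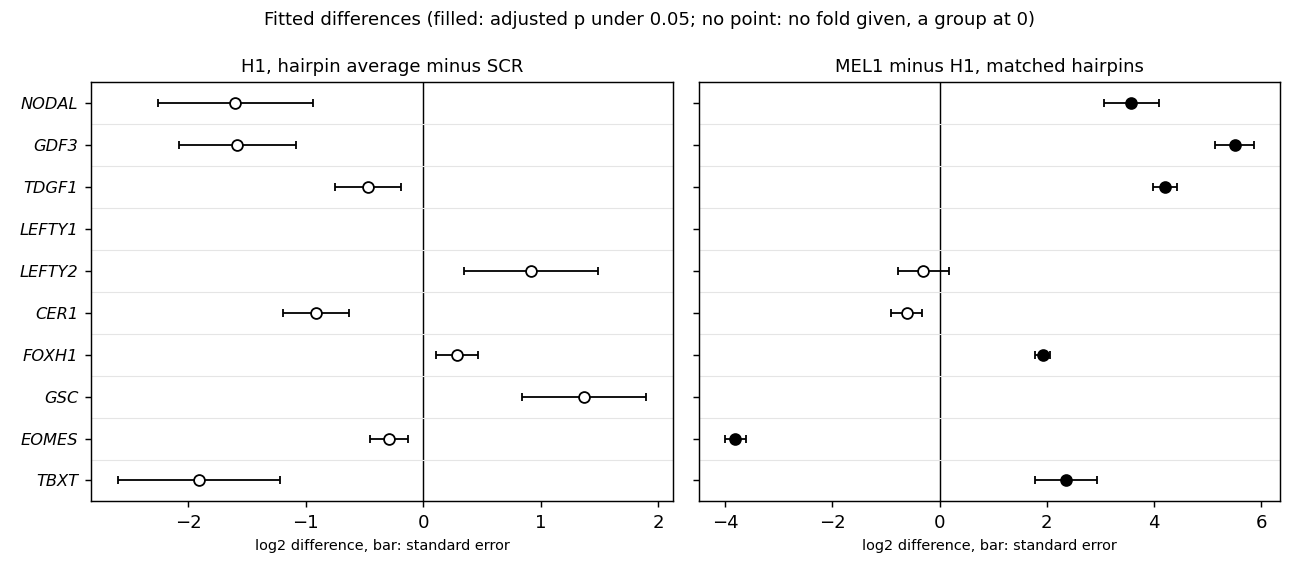
Fitted log2 differences with standard errors for the hairpin average in H1 less SCR (left) and for MEL1 against H1 at SCR, KD1 and KD2 (right); filled points passed an adjusted p of 0.05 by edgeR. All points on the left are open, and on the right NODAL, GDF3, TDGF1, FOXH1 and TBXT lie above 0 and EOMES lies at -3.81; LEFTY1, and GSC on the right, have no point because a group was at 0.

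Between the lines, ligands, co-receptor and SMAD partner stood higher in MEL1 and EOMES stood higher in H1. MEL1 was set against H1 over SCR, KD1 and KD2 with equal weight, and edgeR called 7 of the 10 genes, where it called 49.1% of all tested genes (23.0% higher and 26.2% lower in MEL1). Higher in MEL1 were NODAL by 3.58 ± 0.51, GDF3 by 5.51 ± 0.36, TDGF1 by 4.21 ± 0.23 and FOXH1 by 1.93 ± 0.14 (log2, SE). Their edgeR adjusted p-values were 0.000137, 3.42e-07, 2.37e-06 and 6.63e-07, and in each of these genes all 4 MEL1 libraries were above all 8 H1 libraries. TBXT was higher by 2.36 ± 0.58 (edgeR adjusted p = 0.00554), and without the MEL1 KD2 library it was at 1.63 with an adjusted p of 0.0632. EOMES, in contrast, was lower in MEL1 by 3.81 on the log2 scale (SE 0.19; edgeR adjusted p = 3.7e-08), with all 4 MEL1 libraries below all 8 H1 libraries. GSC was also lower in MEL1 (edgeR adjusted p = 0.00184), with no fold given because MEL1 SCR was at 0. The called target genes therefore did not share a direction. CER1, LEFTY2 and LEFTY1 were not called, at -0.61 ± 0.29 (adjusted p = 0.104) for CER1 and -0.30 ± 0.48 (adjusted p = 0.643) for LEFTY2 with edgeR. CER1 rested on single libraries: it was at 0.47 without MEL1 SCR (adjusted p = 0.232), -1.75 without MEL1 KD2 (adjusted p = 0.00259) and -0.87 without the first MEL1 KD1 library (adjusted p = 0.0199). LEFTY1 was called only without MEL1 SCR (edgeR adjusted p = 0.0369). The lone MEL1 SCR and MEL1 KD2 libraries are assumed in this test to vary like the other groups.

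Whether KD1 and KD2 acted differently in the lines was tested for the 7 genes that did not lead to the choice. None was called by edgeR, none had an unadjusted p under 0.05 and DESeq2 called 0, where 0.598% of all tested genes were called. NODAL had the largest value, 2.23 ± 1.13 (log2, SE; edgeR adjusted p = 0.34), meaning a higher effect in MEL1. FOXH1 was at 0.25 ± 0.31 and at -0.19 with the GC and length trend taken out. As a description, with no test, the same quantity was 3.26 for CER1, 3.33 for GDF3 and 0.56 for TDGF1 (log2). The value for GDF3 rests in part on H1 KD1, whose libraries held 0 and 2 counts. Of the pathway genes outside the 10, edgeR called 1, FURIN, a protease that cleaves Nodal precursors, at 0.99 ± 0.19 (adjusted p = 0.0483). That call was lost under both other scalings, a mean of at least 1 CPM and a non-robust fit (edgeR adjusted p = 0.0507 to 0.0822). It was also lost without any 1 of 10 libraries, at values of 0.73 to 1.04 (log2).

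Other genes of the pathway were taken from lists of ligands and processing enzymes, receptors, SMADs and nuclear partners, further inhibitors, and primitive streak genes. Between the lines, 6 of 9 tested ligand and processing genes were called by edgeR, 3 in each direction, and 3 of 7 receptors, 6 of 10 SMADs and nuclear partners, 4 of 10 further inhibitors and 6 of 14 streak genes. With 49.1% of all tested genes called in this comparison, these counts are not a result about the lists. CFC1, a co-receptor related to TDGF1, was higher in MEL1 by 3.96 ± 0.69 (log2, SE) and INHBB, an activin subunit, by 3.40 ± 0.79, whereas TGFB2 was at -1.11 ± 0.17. Of the receptors, ACVR1C, a type I receptor for Nodal, was higher in MEL1 by 1.77 ± 0.36, and TGFBR1 (-0.59 ± 0.11) and ACVR2A (-0.46 ± 0.11) were lower. The 6 called SMADs and nuclear partners were lower in MEL1, with SMAD3 at -1.06 ± 0.08, but 3 of these calls were fragile. SMAD4 was at -0.17 (edgeR adjusted p = 0.0558) and MED15 at -0.0557 (adjusted p = 0.419) with the GC and length trend removed. MED15 was also lost without MEL1 SCR (adjusted p = 0.142), and TGIF2 under DESeq2, both other scalings and no filter, and without any 1 of 8 libraries. Levels of SMAD3 were 24.7 to 41.7 CPM in MEL1 and 62.0 to 88.3 CPM in H1. Of the further inhibitors 3 were higher and 1 was lower; BAMBI, a decoy receptor, was higher by 1.85 ± 0.15, and PMEPA1, a feedback target, by 1.24 ± 0.16. The call of FST, a binder of activin, was lost without MEL1 KD2 (0.20; edgeR adjusted p = 0.28), and that of TMEM9 without MEL1 SCR (-0.23; adjusted p = 0.122). Of the streak genes 3 were higher and 3 lower: FGF4 was higher in MEL1 by 6.01 ± 0.22 (log2, SE), and FGF8 was at -5.12 ± 0.18. MIXL1 lost its call under DESeq2 (adjusted p = 0.0546) and without any 1 of 4 libraries, with 0.60 (edgeR adjusted p = 0.412) without MEL1 KD2. FURIN and FGF17 lost theirs without MEL1 SCR (edgeR adjusted p = 0.174 and 0.0647) and PCSK6 without MEL1 KD2 (adjusted p = 0.0896). The median log2 difference was -0.76 over the streak list and -0.25 over the SMAD list, beside -0.09 over all tested genes.

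In the H1 average edgeR called 1 of the 14 streak genes and 1 of the 10 further inhibitors, and no gene of the other 3 pathway lists (1, 1 and 2 genes had an unadjusted p under 0.05, and DESeq2 called 1, the receptor ACVR2B), beside 7.16% of all tested genes. FGF8, a growth factor of the streak and of the anterior neural ridge, rose by 1.17 ± 0.14 (log2, SE; adjusted p = 0.00236). It was at 13.6 and 12.4 CPM with SCR, 15.4 and 14.3 with KD1, 45.5 and 40.4 with KD2, and 43.2 and 35.2 with KD3. All 6 hairpin libraries were above SCR, with KD1 close to it, and the H1 hairpins differed for FGF8 (edgeR adjusted p = 0.0022). BAMBI fell by 0.88 on the log2 scale (SE 0.18; edgeR adjusted p = 0.0188), a call lost without either H1 SCR library or the first H1 KD1 library (adjusted p = 0.0505 to 0.138). Between the H1 hairpins, where edgeR called 3.54% of all tested genes, 2 of the 9 ligand and processing genes and 4 of the 14 streak genes were called. TGFB2 (adjusted p = 0.00357) was at 9.51 and 10.96 CPM in KD3 and 2.76 to 4.62 CPM in the other H1 libraries, so KD3 was its high group. APLNR, the apelin receptor (adjusted p = 0.00739), had KD3 as its low group, at 0.994 and 0.793 CPM against 2.30 to 4.15 CPM in the other H1 libraries, a call lost without the second KD3 library (adjusted p = 0.0689). TGFB1 (adjusted p = 0.0341) was at 16.5 and 13.7 CPM in KD1 and 5.31 to 9.20 CPM in the other H1 libraries. FGF17 (adjusted p = 0.0361) was at 1.52 and 1.43 CPM in KD1 and 2.73 to 6.77 CPM elsewhere in H1, and FGF4 (adjusted p = 0.0154) stayed under 0.49 CPM in H1. The calls of TGFB1, FGF17 and FGF4 were lost without either KD1 library, and those of TGFB1 and FGF4 also without either KD3 library. With H1 by itself FGF4 was not called either (edgeR adjusted p = 0.168). The call of FGF17 was lost too without the first KD3 library and without either MEL1 KD1 library. The called genes did not share 1 high or low hairpin.

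Markers of other cell types moved with the line difference. In that comparison edgeR called 23.0% of all tested genes higher in MEL1 and 26.2% lower. Of 11 tested pluripotency markers 10 were higher in MEL1, among them NANOG by 3.93 ± 0.18 and POU5F1 by 3.72 ± 0.18 (log2, SE; edgeR). Summed over that list the level was 2912 to 5392 CPM in MEL1 and 1474 to 1781 CPM in H1, and the lowest MEL1 library was KD2, the one lowest in TDGF1. All 12 neuroectoderm markers were called lower in MEL1, although NES lost its call with the GC and length trend removed (-0.0221; edgeR adjusted p = 0.824) and without MEL1 KD2 (-0.16; adjusted p = 0.189). Their sum was 807 to 1098 CPM in MEL1 against 2229 to 4387 CPM in H1, with PAX6 at 0.204 to 2.92 CPM in MEL1 and 95.8 to 224 CPM in H1. Of 12 amnion and trophoblast markers 11 were higher in MEL1, at 127 to 333 CPM in sum against 35.4 to 44.8 CPM in H1. Definitive endoderm markers summed to 26.6 to 40.9 CPM in MEL1 and 42.4 to 75.7 CPM in H1, a sum made up mostly of CXCR4 and FOXA3. Over the 11 tested members the median log2 difference ran the other way, at 1.75 beside -0.09 over all tested genes. Of these members edgeR called 4 higher in MEL1 and 2 lower. Beside the shares over all tested genes, these counts are not a result about the list. Higher were AFP (5.13 ± 0.53), TTR (4.71 ± 1.03), GATA6 (3.14 ± 0.81) and HHEX (2.92 ± 0.36), each at no more than 7.90 CPM, and lower were CXCR4 (-1.88 ± 0.22) and FOXA1 (-3.11 ± 0.89). GATA6 lost its call without MEL1 SCR (adjusted p = 0.0516). The defining endoderm gene SOX17 was at no more than 0.115 CPM in any library, and FOXA2 at no more than 0.427 CPM, both of these in MEL1. The part of these cell types in the levels of the 10 genes was not tested.

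**Figure D4:**
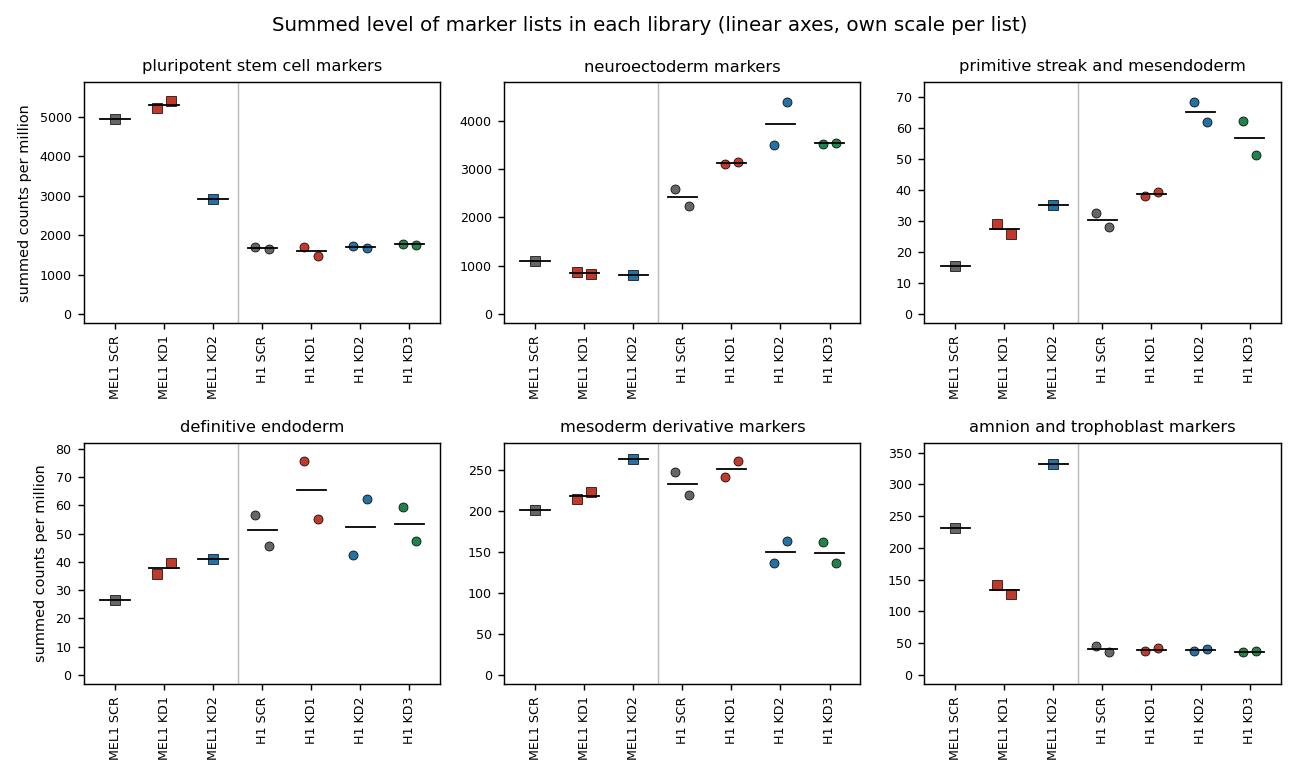
Summed level of 6 marker lists in each of the 12 libraries, in CPM on a linear axis with its own scale for each list; squares are MEL1, circles are H1, colours mark the hairpin and the line is the group mean. Pluripotency markers stand at 2912 to 5392 CPM in MEL1 and 1474 to 1781 CPM in H1, neuroectoderm markers show the opposite order, and primitive streak and endoderm markers stay below 76 CPM in every library.

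Some markers moved between H1 groups too. In the H1 average edgeR called 4 of 11 pluripotency markers, all lower, and 7 of 12 neuroectoderm markers, all higher, beside 4.93% of all tested genes lower and 2.23% higher. The pluripotency list as a whole did not fall: its median log2 was -0.06, beside 0.01 over all tested genes. Its sum was 1647 to 1697 CPM with SCR and 1474 to 1781 CPM in the hairpin libraries. The neuroectoderm list had a median of 0.46. Its sum was 2229 to 2598 CPM with SCR and 3115 to 4387 CPM in the hairpin libraries. All 4 pluripotency calls were lost without either H1 SCR library (adjusted p = 0.0898 to 0.233), and all 7 neuroectoderm calls without the second H1 SCR library (adjusted p = 0.115 to 0.35). POU5F1 was at -1.13 ± 0.21 (log2, SE; edgeR adjusted p = 0.0191). NANOG was at 7.05 and 6.11 CPM with SCR, 1.52 and 1.76 with KD1, 4.15 and 1.91 with KD2, and 8.60 and 6.79 with KD3. It was called between the H1 hairpins (edgeR adjusted p = 0.01) but not without either H1 KD1 library (adjusted p = 0.077 and 0.067). Its KD1 libraries were the lowest, KD2 lay between them and SCR, and KD3 overlapped SCR, the order found for GDF3. Other pluripotency markers did not show that order. POU5F1 was at 62.2 and 58.6 CPM with SCR and 36.5 and 21.3 CPM with KD3. Between the H1 hairpins edgeR called 3 of 11 pluripotency markers, beside 3.54% of all tested genes. The others were USP44 and DPPA4, where KD2 overlapped SCR and KD3 lay above it. Both of these calls were also lost without either H1 KD1 library. Of 11 tested mesoderm derivative markers edgeR called 1 in the H1 average, KDR, beside 4.93% of all tested genes lower. The list had a median log2 of -0.78, beside 0.01 over all tested genes. Its sum overlapped between groups, at 219 to 247 CPM with SCR and 136 to 260 CPM in the hairpin libraries. KDR, a mesoderm receptor, was at 153 and 157 CPM with H1 SCR and 59.6 to 88.2 CPM in the 6 H1 hairpin libraries. It fell in the H1 average by 1.07 on the log2 scale (SE 0.08; edgeR adjusted p = 0.000162), a call kept under every alternative run, each library left out included. Over both lines it was the 1 marker called, at -0.89 ± 0.16 (edgeR adjusted p = 0.0363), and it lost that call without any 1 of 8 libraries (adjusted p = 0.0552 to 0.268).

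Across the 12 libraries, with log2 levels centred on the mean of each line, the 10 genes did not vary as 1 block. GDF3 and TDGF1 had the highest Pearson r, 0.81, followed by 0.63 for LEFTY1 with LEFTY2 and 0.62 for GDF3 with CER1. The lowest were -0.56 for GSC with TBXT and -0.55 for LEFTY1 with TBXT. These values are descriptions over libraries that share lines and hairpins, and several of the genes rest on few counts. Among 14951 other genes with a symbol and a mean of at least 1 CPM, those most like CER1 were SCN4B (r = 0.958), RGMB (r = 0.949) and C1orf226 (r = 0.935). Those most like GDF3 were SLC41A2 (r = 0.937), PEX7 (r = 0.935) and SRD5A1 (r = 0.918), and those most like TDGF1 were CXCL5 (r = 0.970), RARRES2 (r = 0.960) and IDO1 (r = 0.945). CXCL5 was at 1.09 to 3.71 CPM in H1 and 25.4 to 66.0 CPM in MEL1, and so was higher in MEL1 as TDGF1 was.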

How the data were processed

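Total RNA of the 12 libraries was sequenced after a stranded library preparation, per the labels' protocols. The values are estimated counts for each Ensembl gene as the authors deposited them, with totals that differ between libraries; fastp and kallisto are named in the submitters' processing notes, and the build, annotation and strandedness of the counting are not given in the sources used here. Fractional values made up 14.8% to 20.8% of each library. Symbols came from a name table that held 59243 of the 65969 identifiers, of which 41981 had a symbol. Identifiers were looked up in GENCODE release 29 (GRCh38) for coordinates, lengths and GC content; 90.6% of tested genes had a length and GC content.

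Estimated counts were rounded, filtered with filterByExpr over the 7 groups and scaled by TMM in edgeR 4.0.16 (limma 3.58.1, R 4.3.3). Robust quasi-likelihood tests were adjusted by Benjamini-Hochberg over all 24898 tested genes with calls at an adjusted p under 0.05. Standard errors are the log2 difference divided by the square root of F. The comparison over both lines had cell line as a covariate; the others were contrasts of 7 group means. Named genes were the 10 listed genes, METTL14, called genes of 11 pathway and marker lists (at most 6 per list and comparison), and the 3 genes most like each of CER1, GDF3 and TDGF1, by Pearson r of log2 CPM with a prior count of 2. The listed genes, lists, tests and alternatives were chosen with earlier results of these data known; KIFC2 and TDGF1P3 were named for shared sequence. Values of some genes are not reported here. Alternatives were 2 other scalings, other filters, DESeq2 1.42.0, H1 by itself, group means, a non-robust fit, a GC and length trend removed (splines of 5 and 4 degrees of freedom), each library left out and, added after seeing the data, 2 sums of genes that share sequence. On simulated counts with 200 genes changed by a log2 of 2, the test over both lines recovered 98.5% of them among 23701 genes, with 6.64% false calls, and the H1 average recovered 95.0% among 23654 genes, with 4.04% false calls. The test of the difference between lines in the KD1 and KD2 effect recovered 75.0% of 200 among 23700 genes, with 6.21% false calls, and that of the difference between the H1 hairpins 92.0% among 23714 genes, with 11.5% false calls. Changed genes were drawn from those with a mean of at least 1 CPM, which leaves out NODAL, LEFTY1, LEFTY2, GSC and TBXT. All hairpin libraries compared got the same change, except in the H1 hairpin test, where KD1 by itself was changed. Spread was that of the fit of 7 group means. Recovery of low genes, or of genes whose hairpins differ, by the averages over hairpins was therefore not simulated.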

Additional observations from a re-analysis of the deposited data

Results flagged for a closer look

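In 11 groups of values examined for a library far from the rest, 2 had one. Chance gives about 1 in 20 for values of 1 kind, a rate that does not hold for libraries with 3 different hairpins. Both concern the second H1 KD3 library among the 6 H1 hairpin libraries. LEFTY1 was at 0.372 CPM there and at 0.138 CPM in the next highest, a gap of 0.628 of the whole range. LEFTY2 was at 1.51 CPM there and at 0.685 CPM in the next highest, a gap of 0.685 of the range. Both gaps are above Dixon's 95% critical value for 6 values. The 2 genes share sequence, so these are not independent.

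GDF3 was below the SCR mean in every H1 KD1 and KD2 library and above SCR in every MEL1 KD1 and KD2 library. The effect was higher in MEL1 by 3.33 on the log2 scale, and this difference was not tested because GDF3 was listed for its differences between hairpins. It rests in part on the H1 KD1 libraries, with 0 and 2 counts.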

How the results depend on the processing

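Of the 10 genes, 0 were called over both lines, and 0 of 7 for the KD1 and KD2 effect in MEL1 less that in H1, under every alternative run, including DESeq2 and each library left out. In the H1 average the count was 0 by edgeR, 3 without the filter on low counts (GDF3, TDGF1 and CER1), 1 with H1 by itself, 1 with DESeq2 and 0 to 1 with a library left out. Between the lines it was 7, and 4 of the 5 genes left with a mean of at least 1 CPM, 8 with the GC and length trend removed and 7 to 8 with a library left out. With that trend removed CER1 was called between the lines at -0.78 (edgeR adjusted p = 0.0489). Signs turned for values that were not called: over both lines CER1 ran from -0.20 to 0.41, GDF3 from -0.71 to 0.43 and TDGF1 from -0.29 to 0.0283 with a library left out (CER1 at -0.0855, -0.0625, -0.11 and -0.20, GDF3 at 0.43, 0.035 and 0.0145, TDGF1 at 0.0132, 0.0239 and 0.0283). Between the lines CER1 was at 0.47 (-1.75 to 0.47 with a library left out) without MEL1 SCR, and LEFTY2 at 0.0212 when summed with LEFTY1. KDR, unlike these, was called between the lines, at -0.21 (edgeR adjusted p = 0.0319). Its sign turned as well, to 0.00141 without MEL1 SCR (-0.59 to 0.00141 with a library left out). For the KD1 and KD2 effect in MEL1 less that in H1, FOXH1 was at -0.19 with the trend removed and TBXT at -0.64 without MEL1 KD2 (-0.64 to 2.11 with a library left out). The cause was not tested.

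Counts over all tested genes moved more. Over both lines 53 genes were called, and 80 without the filter, 87 with a mean of at least 1 CPM, 126 with the trend removed, 2478 with group means, 1246 with DESeq2 and 11 to 280 with a library left out. In the H1 average 1783 were called, and 3256 without the filter, 3010 with the trend removed, 2696 with DESeq2 and 123 to 1842 with a library left out. For the difference of the effect between lines 149 were called, and 88 with median-of-ratios and 97 with upper-quartile scaling, 1369 without the filter, 95 with a mean of at least 1 CPM, 82 with a non-robust fit, 509 with the trend removed, 751 with DESeq2 and 34 to 565 with a library left out; without MEL1 SCR it has no value. Between the H1 hairpins 881 were called, and 3384 without the filter, 1869 with the trend removed, 2224 with DESeq2 and 154 to 1139 with a library left out. No paired analysis was possible because the labels carry no replicate numbers. Depth limits NODAL, LEFTY1 and TBXT in H1 most, at no more than 15 counts in a library.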
